A study of Mus musculus with 1 sample.

Results

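Resting CD4 T cells were taken here as the blood T cells of 1 mouse that carried Cd4 transcripts, no transcripts of the CD8 coreceptor genes Cd8a and Cd8b1, none of the regulatory factor Foxp3 and none of S100a4, a calcium-binding protein of activated and memory cells. A member also needed a total of unique molecular identifiers (UMIs, each standing for 1 captured transcript) above a limit that 1600 barcodes of the library passed, at least 10% of its UMIs on ribosomal protein genes, and a T cell receptor (TCR) clonotype. Of these 1600 barcodes, 983 passed the ribosomal limit and 815 of those had a clonotype. Among the 815, 213 had Cd4 and no CD8 transcripts, 471 had CD8 and no Cd4 transcripts, 31 had both and 100 had neither. The 163 members were 20% of the clonotyped cells (exact binomial 95% interval 17.3 to 22.9) and 76.5% of the CD4 cells (70.3 to 82). The other CD4 cells were 37 with S100a4 and no Foxp3 transcripts and 13 with Foxp3 transcripts.

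The library came from a vehicle-treated mouse of an autochthonous model of small cell lung cancer (SCLC), in which Rb1 and Trp53 are deleted after a Cre-expressing adenovirus is given into the airway. The vehicle was PBS, given every 3 days. The study set a minimal age for its mice and included both sexes, but the age and sex of this mouse are not given in the sources used here. Peripheral blood (150 µl) was freed of red cells in 850 µl of lysis buffer, T cells were enriched by negative selection, and RNA and TCR chains were read in the same droplets. With 1 library from 1 mouse there is no replicate, no test was made, and every interval below covers counting error only. The combination-treated mouse was not analysed here, so no value below bears on treatment.

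As background, CD4 T cells recognise peptides on class II MHC molecules and help other immune cells through surface ligands and cytokines. Before they meet antigen they circulate between blood and lymph nodes in a quiescent state that is kept by transcription factors such as LEF1, TCF7, FOXP1 and SATB1, and by the interleukin 7 receptor. They enter lymph nodes with the help of the chemokine receptor CCR7 and leave them through the sphingosine phosphate receptor S1PR1. Memory cells lose part of this programme and take up genes of adhesion, the cytoskeleton and migration.

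The members held 722162 UMIs, with a median of 3997 per cell (1487 to 10564) and 1745 genes per cell. Their median ribosomal share was 24.5% (10.4 to 44.6) and their median mitochondrial share 1.69%. None was a predicted doublet. The other groups were compared by the same limits. CD8 cells without Cd4, Foxp3 or S100a4 transcripts (394 cells) held 3145724 UMIs, with a median of 7993.5 per cell and a ribosomal share of 34.6%. The S100a4-positive CD4 cells had a median of 5025 UMIs and a ribosomal share of 18.8%, and the Foxp3-positive CD4 cells a median of 4481 UMIs. The CD4 members were therefore the shallowest of these T cell groups, and levels are given as pooled UMIs per 10000 UMIs of the group with exact Poisson 95% intervals. Shares of cells with a transcript are given with all UMIs and after each cell was thinned to 2500 UMIs, which left 136 members and 388 CD8 cells. The 68 B cells left in the library, with a median of 4021 UMIs and 56 cells after thinning, gave the background share for T cell genes.

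**Figure D1:**
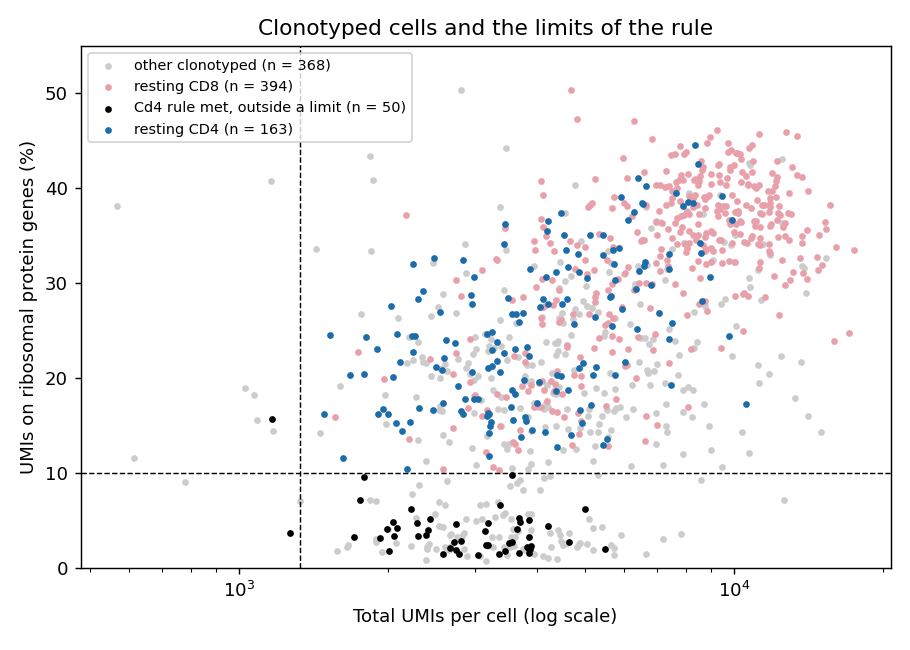
Total UMIs per cell (x axis, log scale) against the share of UMIs on ribosomal protein genes in percent (y axis), 1 point per clonotyped cell, with dashed lines at the limits of the rule: 163 resting CD4 cells (blue), 50 cells that met the gene rule but missed a limit (black), 394 CD8 cells (pink) and 368 others (grey). The members ran from 1487 to 10564 UMIs and from 10.4% to 44.6% ribosomal UMIs, and the CD8 cells, with a median of 7993.5 UMIs, lay deeper.

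Cd4, on which the rule turned, was low, as 73 members had 1 Cd4 UMI, 40 had 2, 50 had 3 or more and none had over 6. The lowest ribosomal share among members was 10.4%, and of the 48 cells that failed this limit alone the highest had 9.78% and the median cell 3.29%, so that most of these lay well below the limit. A further 11 cells failed only for want of a clonotype, and 1 cell, with 1165 UMIs, only the UMI limit. Of the 37 S100a4-positive cells, 7 had exactly 1 S100a4 UMI and the highest had 59.

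Most of the members carried the transcripts that the label calls for, and a minority did not. The markers named for the label were Cd4, which the rule used, and 4 that it did not. These were Igfbp4 (a secreted binder of insulin-like growth factors), Lef1 (a transcription factor of quiescent T cells), Ccr7 (the lymph node homing receptor) and Ly6c1 (a lipid-anchored surface antigen). Of the 136 thinned members, 63 (46.3%) had transcripts of 3 of the 4 and 16 (11.8%) of all 4, whereas 34 had 2, 18 had 1 and 5 had none. Of the 388 thinned CD8 cells 99 (25.5%) had 3, 158 (40.7%) had 2, 99 had 1, 31 had none and 1 (0.258%) had all 4.

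Igfbp4 (chromosome 11, 99040005 to 99052655 in GRCm38.p6) was found at 757 UMIs in 92 members, with a lowest value of 0, a median of 2 and a highest of 37 UMIs per cell. Its pooled level was 10.5 per 10000 (9.75 to 11.3) against 3.06 (2.87 to 3.26) in the CD8 cells and 0.138 in the S100a4-positive CD4 cells. The share of members with a transcript was 56.4% (59.6% thinned), against 49.7% (35.6%) of CD8 cells and 2.94% (1.79%) of B cells. Among the 92 members with a transcript the median was 5 UMIs and 10 had 1 UMI. Igfbp4 was all but missing from the S100a4-positive cells. In the Foxp3-positive CD4 cells its level was 8.74 (6.74 to 11.1), but all 65 UMIs there came from 4 cells.

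Lef1 (chromosome 3, 131110297 to 131224357) and Ccr7 (chromosome 11, 99144199 to 99155077) were broader. Lef1 was at 756 UMIs in 147 members, with a median of 4 and a highest of 22 per cell, and a level of 10.5 (9.74 to 11.2) against 6.9 (6.61 to 7.19) in CD8 cells. It was found in 90.2% of members (84.6% thinned), 94.9% (78.9%) of CD8 cells and 7.35% (5.36%) of B cells. Ccr7 was at 784 UMIs in 148 members, with a median of 4 and a highest of 21 per cell, and a level of 10.9 (10.1 to 11.6) against 6.37 (6.1 to 6.66) in CD8 cells. B cells express Ccr7 themselves, at 6.11 per 10000 and in 75% of cells (69.6% thinned), so they give no background for it.

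Ly6c1 (chromosome 15, 75044018 to 75048920) was found in a smaller share of the members. Its 147 UMIs lay in 47 members, the median cell had 0 and the highest 19, and the share was 28.8% (22.8% thinned) against 2.28% (1.03%) of CD8 cells and 1.47% (1.79%) of B cells. The level was 2.04 per 10000 (1.72 to 2.39) in the members and 0.0445 in the CD8 cells. In the Foxp3-positive CD4 cells it was 1.75 (0.93 to 2.99), from 13 UMIs in 5 of the 13 cells (38.5%, or 25% thinned), an interval that overlaps that of the members. Its neighbour Ly6c2 (chromosome 15, 75108161 to 75112066), a close copy, had the opposite distribution, with 12 UMIs in 6 members and 3034 UMIs in 234 CD8 cells. Reads that fit both copies could have been counted for either or dropped, so both levels carry that uncertainty.

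**Figure D2:**
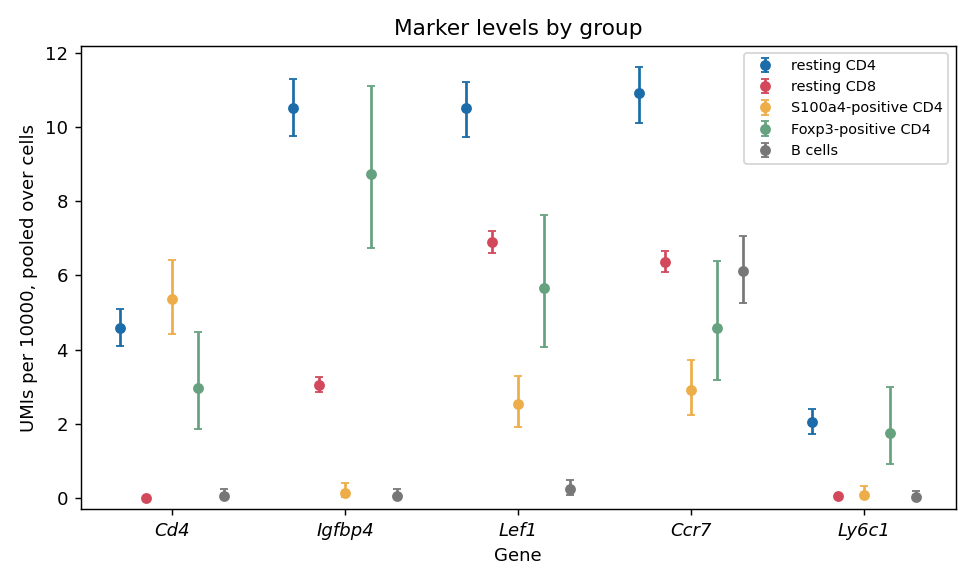
Pooled level in UMIs per 10000 (y axis) of the label's markers in resting CD4 cells, CD8 cells, S100a4-positive CD4 cells, Foxp3-positive CD4 cells and B cells, with exact Poisson 95% intervals as bars that cover counting error only. Igfbp4 stands at 10.5 in the members and 3.06 in the CD8 cells, and Ly6c1 at 2.04 and 0.0445.

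The most abundant transcripts of the members were also abundant in the CD8 cells of this library. Gm42418, a gene that overlaps ribosomal RNA repeats, led at 179 per 10000, followed by Cdk8 at 135, the nuclear long non-coding RNA Malat1 at 127 (59 in CD8 cells), Cmss1 at 101 and Rps24 at 93.2. The actin-binding thymosins Tmsb10 and Tmsb4x were at 87.7 and 57.7 and the elongation factor Eef1a1 at 76.1. Tpt1 was at 56.9, Fau at 56.7, and the other genes among the 20 highest encode ribosomal proteins.

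Marker lists of other cell types ran from 0 UMIs to more than 100 UMIs. T cell receptor and CD3 genes (6 of 6 found) summed to 35.5 per 10000 and reached every member. The defining genes of innate-like T cells, Zbtb16 and Klrb1c, were both at 0. Of the gamma delta constant genes, 4 of the 7 names were in the table and 1 UMI of Tcrg-C2 was found. Of the NK genes 5 of 6 were at 0, and the 7 UMIs of Eomes all came from 1 cell. The erythroid list gave 7 UMIs. The tumour list gave 4 UMIs, 2 of them Epcam, with the neuroendocrine genes Insm1 and Calca at 0. The myeloid list gave 72 UMIs in 57 members, 58 of them Cst3, at 0.997 per 10000 against 1.65 in CD8 cells and 3.97 in B cells. The platelet list gave 72 UMIs in 25 members (0.997 per 10000, 0.78 to 1.26, led by Pf4 with 17). That was more than in CD8 cells (0.388, 0.322 to 0.463) and less than in the S100a4-positive cells (2.77, 2.11 to 3.56). The B cells were at 0.534 (0.305 to 0.867), an interval that overlaps that of the members. The regulatory markers gave 141 UMIs in 62 members (1.95 per 10000, 1.64 to 2.3), led by Tnfrsf18 with 56, against 0.919 in CD8 cells and 12.9 in the Foxp3-positive cells.

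Immunoglobulin M heavy chain led the B cell list. The list gave 133 UMIs in 87 members (1.84 per 10000, against 417 in B cells), and 118 of them were Ighm, found in 80 members (49.1%, or 30.1% thinned). Cd79b, H2-Ab1 and Ebf1 were at 0. The other 10 B cell genes together gave 15 UMIs, or 0.127 per Ighm UMI, where the B cells of the same library gave 37.5. The ratio was 0.748 in the CD8 cells. The source of the Ighm counts was not tested.

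Resting CD4 cells differed from CD8 cells chosen by the mirrored rule in a compact set of genes. Of 7141 genes with at least 50 UMIs in both groups together, 351 (4.92%) were at least 2-fold higher in the CD4 cells and 244 (3.42%) at least 2-fold lower. This is a rule of size, not a test, and a gene is called higher or lower below only by it. The median ratio over all genes was 1.16 (0.21 on the log2 scale), and 1.04 with ribosomal protein genes left out of the totals. Relative to that median 184 genes were higher and 360 lower, and with ribosomal protein genes left out 234 were higher and 331 lower, so the balance of higher and lower genes depends on the scaling. The ratios below are not centred, and those of 5-fold and more do not hang on this shift. Higher calls close to 2-fold do. Those of Cd28, Cd5, Cd247, S1pr1, Itga6, Tgfbr2, Itgb1, Bcl6, Ikzf2 and Capg fall under 2-fold relative to the median.

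**Figure D3:**
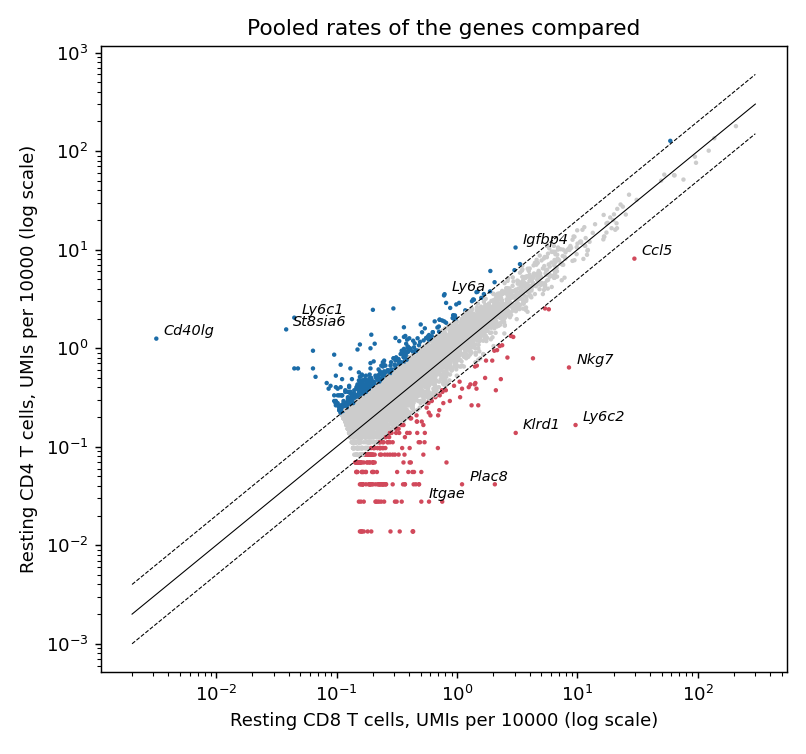
Pooled UMIs per 10000 of each gene in the 394 CD8 cells (x axis) and the 163 resting CD4 cells (y axis), both on log scales, 1 point per gene with at least 50 UMIs in both groups together, genes at 0 set to 3 UMIs, blue and red for at least 2-fold higher and lower in CD4 cells, and lines at equal rates (solid) and at 2-fold (dashed). Cd40lg, Ly6c1 and St8sia6 lie far on the CD4 side, and Ly6c2, Klrd1 and Nkg7 far on the CD8 side.

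The gene with the highest ratio was Cd40lg (chromosome X, 57212143 to 57224042), the ligand by which helper cells engage CD40 on B cells and dendritic cells. It had 90 UMIs in 66 members and 1 UMI among the 394 CD8 cells, a level of 1.25 against 0.00318 per 10000, which is a ratio of 392 (68.6 to 15655). Cd40lg was not particular to the members among CD4 cells. Its level was 2.17 (1.59 to 2.88) in the S100a4-positive and 1.08 (0.464 to 2.12) in the Foxp3-positive CD4 cells. The lineage factor Zbtb7b, also known as ThPOK, had 18 UMIs in 17 members and 1 UMI in CD8 cells, a ratio of 78.4 (12.4 to 3267) that fell under the limit of 50 UMIs for counting. The CD8 lineage factor Runx3 had the opposite sign, at 0.429 per 10000 in the members and 1.4 in the CD8 cells, 3.27-fold (2.27 to 4.87) lower in the CD4 cells. Runx1, another factor of the same family, was 3.55-fold (2.94 to 4.28) higher in the members. Of the lineage factors, 6 of 7 had enough UMIs, with 1 higher (Runx1), 2 lower (Runx3 and Eomes) and a median ratio of 1.59. Gata3, Tox and Patz1 were within 2-fold, at ratios of 1.58, 1.59 and 1.74.

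The other genes of highest ratio had varied roles. The sialyltransferase St8sia6 (chromosome 2, 13651018 to 13794734) had 112 UMIs in 65 members against 12 in 9 CD8 cells, a ratio of 40.7 (22.4 to 81). Izumo1r (chromosome 9, 14885814 to 14903951), the folate receptor 4 gene known from CD4 T cells, was at 0.859 against 0.0954 per 10000, 9-fold (5.73 to 14.4) higher. Trat1, an adaptor of the TCR complex, was 7.07-fold higher, the tetraspanin Tspan32 8.57-fold, the secreted glycoprotein Ecm1 14-fold and Tbc1d4, a regulator of vesicle traffic, 13.1-fold. In the S100a4-positive CD4 cells Izumo1r, Trat1 and Tbc1d4 were at 1.38, 1.57 and 1.84 per 10000, against 0.859, 1.37 and 0.623 in the members. St8sia6, Ecm1 and Tspan32 were at 0.415, 0.138 and 1.84 there, against 1.55, 0.623 and 2.53. A630023P12Rik, Tmem154, Tmem64, Tesc, Cers6 and Ldhb completed the 15 highest, at ratios between 5.36 and 9.8.

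The integrin gene Itgb3 was also among them, with 68 UMIs in 46 members against 20 UMIs in 19 CD8 cells, a ratio of 14.8 (8.89 to 25.7). It is also a platelet gene, and 3 of the 7 platelet markers had a ratio to CD8 cells whose interval lay above 1, Ppbp at a ratio of 3.32, Gp9 at 4.08 and Itga2b at 4.79. In the 138 members with no platelet UMI the Itgb3 level was 0.895 per 10000 (0.673 to 1.17), and in the 347 CD8 cells with none it was 0.0618 (0.036 to 0.099). A cell with no UMI of these 7 sparse genes may still hold platelet RNA, and its part in the Itgb3 difference was not tested.

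Among costimulatory and inhibitory receptors, taken as 1 list, 5 genes were higher in the members and 2 lower of 9 with enough UMIs (13 in the list), with a median ratio of 2.29 against 1.16 over all genes. CD28, the main costimulatory receptor of naive cells, was at 3.12 against 1.36 per 10000 (ratio 2.29, 1.94 to 2.7) and was found in 66.9% of members (53.7% thinned) and 53.8% (24.7%) of CD8 cells. Icos was 2.93-fold higher, the inhibitory receptors Btla and Ctla4 2.66-fold and 3.27-fold, and Slamf6, a receptor of resting and stem-like cells, 2.53-fold. Cd226, an activating receptor of cytotoxic cells, was 2.2-fold (1.63 to 3.02) lower and Cd160 5.74-fold lower, the latter from few UMIs (interval 1.51 to 48.7).

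TCR signalling genes differed little, with 2 of 19 higher, none lower and a median ratio of 1.3. The exceptions were Cd5, a brake on TCR signalling whose surface level follows the strength of self-recognition, at 3.1 against 1.38 per 10000 (2.25-fold, 1.9 to 2.65), and the CD3 zeta chain gene Cd247 at 6.19 against 3 (2.06-fold, 1.84 to 2.31). Relative to the median ratio of 1.16 over all genes, Cd5 and Cd247 both fell under 2-fold. The kinases Lck and Zap70 had ratios of 1.05 (0.943 to 1.17) and 1.03 (0.806 to 1.3).

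None of the 13 quiescence genes passed 2-fold in either direction. Their ratios all lay above 1, with a median of 1.54 against 1.16 over all genes. Satb1, a chromatin organiser, was nearest to the limit at 6.88 against 3.48 per 10000 (ratio 1.98, 1.77 to 2.2), followed by Btg2 at 1.89 and Bach2 at 1.8, and Klf3 was the lowest at 1.19. The homing list gave 2 higher genes of 15, S1pr1 (ratio 2, 1.73 to 2.31) and the integrin Itga6 (2, 1.48 to 2.68), both at the limit itself. Its 1 lower gene was Ccr9, the gut homing receptor, with 4 UMIs in members and 124 in CD8 cells (7.12-fold lower, 2.71 to 26.5).

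Among cytokine receptors 1 of 12 was higher and 1 lower. Tgfbr2, a receptor of TGF-beta, was at 3.24 against 1.59 per 10000 (2.04-fold). Il2rb, the beta chain shared by the receptors of interleukins 2 and 15, was at 0.485 against 2.31 (4.78-fold lower, 3.4 to 6.91) and was found in 17 members only. Il7r was at 13.6 against 9.28 per 10000, in 88.3% of members and 91.9% of CD8 cells (81.6% and 79.1% thinned), and in 2.94% of B cells.

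Genes of cytotoxic cells had the lowest ratios as a group. All 9 with enough UMIs were lower in the CD4 cells, with a median ratio of 0.172. The NK receptor gene Klrd1 had 10 UMIs in 9 members against 967 UMIs in 314 CD8 cells (22.2-fold lower, 12 to 46.4). The granule membrane gene Nkg7 was at 0.637 against 8.5 per 10000 (13.3-fold lower, 9.98 to 18.3), and 5.52% of members had it against 91.4% of CD8 cells (4.41% and 76.3% thinned). B cells had it in 1.47%. Gzma and Gzmm, which encode granzymes, were at 0 in the members.

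Among the genes of lowest ratio, Ly6c2 was 58-fold (33.2 to 112) lower in the members. Gm44174 and Plac8 were at 0 there against 648 and 345 UMIs in CD8 cells, which makes them at least 49.6-fold and at least 26.4-fold lower if 3 counts over the group are taken as the floor. Rcn3, Cxcr6 (a chemokine receptor of tissue-homing cells), Prss12, Bend4 and Wdr95 rested on 1 UMI each in the members, and Lcn4, Samd3 and the integrin Itgae on 2. The interval for Itgae ran from 4.97 to 152 around 18.3. S100a9 was 24.1-fold lower, but its 105 UMIs came from 3 CD8 cells, 103 of them from 1, so it describes that cell.

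In the Ly6 family 2 of 4 genes were higher (Ly6c1, and Ly6a at 3.53 against 0.788 per 10000, 4.48-fold, 3.75 to 5.36) and 1 lower (Ly6c2), and Ly6e was within 2-fold. Of 16 interferon-response genes 2 were higher, Ifi27l2a (3.2-fold, 2.82 to 3.63) and Iigp1 (2.54-fold, 1.69 to 3.77), none was lower and the median ratio was 1.3. Of 10 immediate early genes Jun was higher (3.06-fold, 1.78 to 5.19) and Myc lower (2.16-fold, 1.42 to 3.44), with 8 in neither direction. None of 5 cell cycle genes and none of 6 survival genes passed 2-fold, and Mki67 had 5 UMIs in the members. Of 2 thymic emigrant genes Itm2a was higher (5.36-fold, 3.82 to 7.56) and Ccr9 lower. Rag1, Rag2 and Cd24a were at 0 in the members.

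Of 7 regulatory T cell genes 4 were higher and 1 lower in the members, although cells with Foxp3 were left out. Izumo1r, Ctla4, Ikzf2 (2.3-fold, 1.5 to 3.48) and Capg (2.31-fold, 1.23 to 4.2) were the higher ones and Itgae the lower. Relative to the median ratio of 1.16 over all genes, Ikzf2 and Capg fell just under 2-fold. Ikzf2 lay in 15 members and Ctla4 in 22. Of the 37 Ikzf2 UMIs, 11 came from 1 member and 20 from 3, so its 2-fold call leans on those cells. Il2ra was at 3 UMIs in 1 member. The memory and effector list gave 1 higher gene of 16, the integrin Itgb1 (2.24-fold), and 6 lower, with a median ratio of 0.628.

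Few transcripts of helper cytokines were read, which at this depth does not limit the share of members that express them. The type 2 cytokine genes Il4 and Il13 were at 1 and 0 UMIs, Il17a at 0 and Ifng at 2. Ccr4 and Ccr6 were at 0. Il21, a cytokine of follicular helper cells, had 5 UMIs in 4 members and 0 in CD8 cells, and the follicular factor Bcl6 had 18 UMIs in 16 members (2.18-fold above CD8, 1.16 to 3.94). Of the 13 helper genes 3 had enough UMIs, with 1 higher (Bcl6), 1 lower (Tbx21, with 8 UMIs in 3 members) and 1 in neither direction. Outside that list, Cxcr3 was in 15 members, Maf in 11 and Rora in 11. Nr4a1, an early gene of TCR stimulation, had 2 UMIs and Egr2 had 0.

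The CD8 comparison group held cells with effector transcripts, so it was also narrowed to the 134 CD8 cells without a UMI of Gzma, Gzmb, Gzmk, Ccl5 or Il2rb (median 7097.5 UMIs). Of 4401 genes 194 were then higher in the CD4 cells and 58 lower. Cd40lg had 0 UMIs in these CD8 cells and was at least 37.2-fold higher in the members. Ly6c1 was 22.8-fold higher, Igfbp4 2.25-fold, Cd5 2.62-fold, Cd28 2.66-fold and Itgb1 8.37-fold, while Klrd1 was 22.3-fold, Ly6c2 22.4-fold, Itgae 29-fold, Nkg7 7.21-fold and Runx3 2.99-fold lower. Samd3 no longer passed 2-fold. The members were not filtered here, and 17 of them had Il2rb and 11 had Ccl5. With the same filter on both sides, a choice made after the data were seen, 138 members remained, and of 4079 genes 156 were higher in them and 61 lower. Itgb1 was then 4.08-fold (2.49 to 6.89) higher, against 2.24-fold with no filter on either side. Ly6c1 was 25.5-fold, Igfbp4 2.37-fold, Cd5 2.32-fold and Cd28 2.68-fold higher, and Ly6c2 was 74.6-fold (25.3 to 363), Nkg7 69.2-fold (26.8 to 255), Klrd1 20.7-fold, Itgae 24.2-fold and Runx3 2.66-fold lower.

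Within the CD4 cells, the members were set beside the 37 S100a4-positive cells. Because S100a4 chose both groups, these values are a description. Of 3015 genes 152 (5.04%) were higher in the members and 182 (6.04%) lower, with a median ratio of 0.938. Relative to that median 189 were higher and 150 lower, and with ribosomal protein genes left out 203 and 131. On the member side stood the resting markers themselves. Igfbp4 had 757 UMIs against 3 (75.8-fold, 25.8 to 368) and Ly6c1 147 against 2 (22.1-fold). Dapl1 (chromosome 2, 59484653 to 59505020) had 96 UMIs in 35 members and 0 in the S100a4-positive cells, at least 9.61-fold higher, and Gm14085 57 against 0, at least 5.71-fold.

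Some quiescence genes were also higher. Satb1 was at 6.88 against 1.25 per 10000 (5.53-fold, 3.75 to 8.47), Lef1 was 4.13-fold, Bach2 2.67-fold and Foxp1 2.5-fold higher, which made 4 of the 13, and none was lower. Tcf7, Klf2 and Ets1 differed less, at ratios of 1.42, 1.12 and 1.04. Of 12 homing genes 2 were higher, among them Ccr7 (3.74-fold), and 3 lower, with a median ratio of 0.943 beside 0.938 over all genes. Of the 12 cytokine receptors 2 were higher, Il6st and Il4ra at 4.88-fold and 4.8-fold, and 2 lower. Bcl2, which keeps resting cells alive, was the 1 higher of 3 survival genes at 2.9-fold. The kinase gene Txk was 2.81-fold and the early activation gene Cd69 2.3-fold higher in the members. Atp1b1 (a sodium pump subunit), Patj, Lef1os1, Klhdc2, Pdk1, St8sia1, Cep97, Slc49a4 and Sesn1 were also among the 15 highest, between 5.54-fold and 8.81-fold, each on 9 or fewer UMIs in the S100a4-positive cells.

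The opposite side was held by the memory list, with 17 of 17 genes lower in the members and a median ratio of 0.146. Galectin 1 (Lgals1) was 9.89-fold lower. Galectin 3 (Lgals3) was 87.7-fold (28.9 to 434) lower, but 9 of the 37 S100a4-positive cells had it and 1 of them held 45 of its 79 UMIs, and without that cell it was 39.7-fold (12.5 to 202) lower. S100a6, a relative of S100a4, was at 0.955 against 22.5 per 10000 (23.6-fold lower), the annexin Anxa2 14.9-fold, the scaffold Ahnak 8.37-fold, the nuclear receptor Rora 15.1-fold and the chemokine receptor Cxcr3 10.9-fold lower. Ly6c2, Capg, Pglyrp1, Pdcd1, Nkg7, Maf, Nrp1 and Myo1f were between 6.44-fold and 10.5-fold lower, and Ly6c2, with 19 of its 38 UMIs in 1 cell, was 5.56-fold (2.56 to 12.6) lower without it. Of the 6 regulatory genes 5 were lower in the members and of 3 cytotoxic genes 2. In the other lists 1 of 3 lineage factors was lower, 1 of 19 TCR signalling genes higher and 2 lower, 1 of 8 costimulatory genes higher and 3 lower, 1 of 7 immediate early genes higher and 2 of 3 cell cycle genes lower. Of 13 interferon genes 1 was lower, of 4 Ly6 genes 1 was higher and 2 lower, and the 1 thymic emigrant gene, Itm2a, was higher.

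Against the 13 Foxp3-positive cells, 223 of 2485 genes (8.97%) were higher in the members and 124 (4.99%) lower, with a median ratio of 1.01. The depth of 74393 UMIs in 13 cells limits this comparison, and many genes can pass 2-fold on few UMIs. With S100a4, S100a6 and Lgals1 all at 0, 115 genes were higher. Of the 15 highest ratios, 14 rested on 1 UMI in the Foxp3-positive cells, and the highest, Aurkaip1, had an interval from 1.27 to 293 around 7.31. On more UMIs, the quiescence genes Satb1 (4.65-fold, 2.58 to 9.38), Tcf7 (3.3-fold) and Bach2 (2.13-fold) were higher in the members, making 3 of 13, as were Ccr7 (2.38-fold), Bcl2 (2.08-fold) and Slamf6 (2.14-fold). Igfbp4 was within 2-fold. On the lower side, Lgals1 was 12.9-fold lower in the members, S100a6 9.57-fold, the transcription factor Ikzf2, which marks thymic regulatory cells, 8.66-fold (5.25 to 14.2), Il2rb 7.77-fold, Cd7 6.74-fold, vimentin (Vim) 5.59-fold and Ctla4 3.88-fold. S100a10, Ahnak, Crip1, S100a11, Prr13, Ubl3, Arcn1 and Psen2 were between 3.57-fold and 4.66-fold lower. Of 12 memory genes 9 were lower and 1 higher, and of 4 regulatory genes 3 were lower. Foxp3 chose both groups, and S100a4 was held at 0 in the members but not in the Foxp3-positive cells. The memory and regulatory values here are therefore a description.

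Much of this lower side lay in the 2 deepest Foxp3-positive cells, of 14103 and 11752 UMIs. One of them held 83 of the 136 Lgals1 UMIs, 18 of the 28 Il2rb UMIs and 16 of the 25 Cd7 UMIs, and the other 49 of the 68 S100a6 UMIs, 82 of the 174 Vim UMIs and 88 of the 143 S100a10 UMIs. With both left out, a choice made after the data were seen, 11 cells with 48538 UMIs remained, and 238 of 2374 genes were higher and 111 lower in the members. Of 11 memory genes 2 were then lower and 2 higher. Lgals1 was level (1.02-fold), Crip1 too (0.992-fold), and Ahnak was 1.7-fold higher in the members. S100a10 was 1.4-fold lower and no longer passed 2-fold. Without the cell of 11752 UMIs alone, Ubl3 was 2.16-fold (0.932 to 4.45) lower. The regulatory genes Ikzf2 and Ctla4 were still 8.04-fold and 4.63-fold lower and made up 2 of 4, but Ctla4 leaned on another cell, of 4374 UMIs, with 7 of its 18 UMIs, and was 2.52-fold (1.18 to 4.95) lower without that cell alone. S100a6 was 3.45-fold, Cd7 3.72-fold, Vim 2.66-fold and Il2rb 2.55-fold lower, on 16, 9, 54 and 6 UMIs. On the higher side Satb1 (3.04-fold) and Tcf7 (2.27-fold) still passed 2-fold, while Bach2 (1.53-fold), Ccr7 (1.55-fold), Bcl2 (1.49-fold) and Slamf6 (1.65-fold) did not. Most of the memory gene difference from the Foxp3-positive group thus rested on those 2 cells.

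The members were not uniform. The 20 genes of the memory and effector list were counted in each thinned cell. The median member had 2 of them (quartiles 2 and 4.25, range 0 to 12), and 9 of 136 had none. The median was 4 in the CD8 cells and 11 in the S100a4-positive cells. At a limit of 7 genes, set after the distribution was seen, 20 of 136 members (14.7%) were at or above it, with 3 at the limit and 7 just below, against 34 of 36 S100a4-positive cells and 113 of 388 CD8 cells. These 20 cells are a range of a score, not a cell type.

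**Figure D4:**
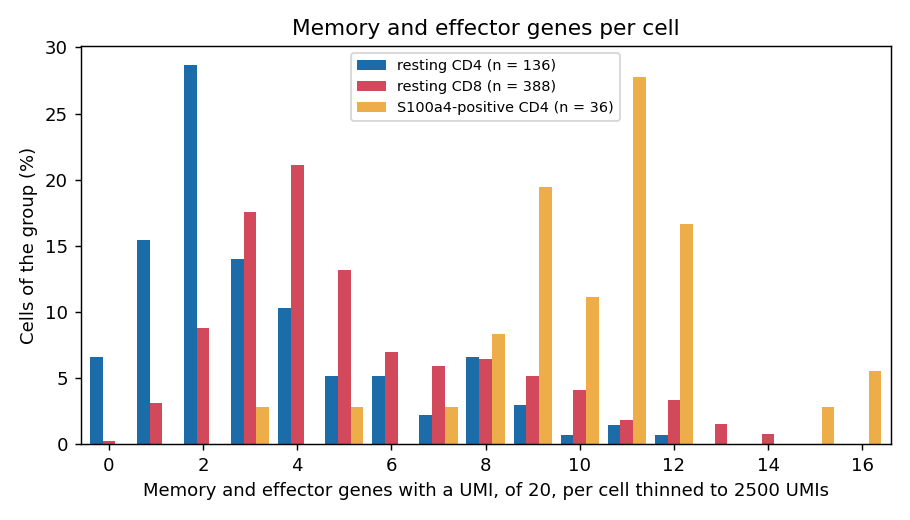
Share of cells in percent (y axis) by the number of memory and effector genes, of 20, with a transcript after thinning to 2500 UMIs (x axis), for 136 resting CD4, 36 S100a4-positive CD4 and 388 CD8 cells. Members peak at 2 genes with a tail to 12, and the S100a4-positive cells centre on 11.

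Of the label's markers, Igfbp4 and Ly6c1 were nearly absent from the 20 cells, and Lef1 and Ccr7 were lower but still found in 12 and 14 of them. Their depth was similar, with medians of 4432.5 UMIs against 4483 in the other 116. Igfbp4 had 1 UMI in them, a level of 0.109 per 10000 against 12.9. Ly6c1 had 1 UMI, 0.109 against 2.33, and Dapl1 had 0 against 96 UMIs. Satb1 was at 0.87 against 7.81, Lef1 at 3.05 against 11.4 and Ccr7 at 5.98 against 11.5. Tcf7 (9.79 against 8.3), Cd40lg (1.31 against 1.2) and Cd4 (5 against 4.23) differed less. Il2rb was at 2.39 against 0.191 (12.5-fold), Il7r at 20.9 against 12.2 and Ikzf2 at 1.74 against 0.331.

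Chemokine transcripts were concentrated further. Ccl5, a chemokine of effector and memory T cells, had 585 UMIs in 11 members, and 577 of them came from 3 cells with 234, 179 and 164 UMIs. These 3 cells had 4, 2 and 1 Cd4 UMIs and no CD8 UMI. None had Igfbp4 or Ly6c1, and they shared 33 Nkg7 and 27 Lgals1 UMIs. All 9 Gzmk UMIs of the 3 cells and the 7 Eomes UMIs lay in 1 of them. The group level of Ccl5, 8.1 per 10000, thus described 3 cells and not the other 160.

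Members with and without Igfbp4 differed along the same axis, though also in depth. The 92 with a transcript had a median of 4874 UMIs and the 71 without 3194. S100a6 was at 0.0622 per 10000 in the former and 2.75 in the latter (44.2-fold), and Itgb1 at 0.415 and 5.62 (13.5-fold). Lef1 was 1.4-fold higher in the Igfbp4-positive cells, and Cd5 was at 2.61 in them and 4.08 in the others.

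Ly6c1 marked another division, at nearly even depth (medians 3872 UMIs in 47 cells with and 4080 in 116 without). Cd5 was at 1.81 per 10000 in the cells with Ly6c1 and 3.65 in those without, 2.01-fold (1.42 to 2.92) lower. Izumo1r was at 0.233 and 1.12, 4.83-fold (1.95 to 15.5) lower, whereas Ly6a was at 4.93 and 2.94, 1.68-fold (1.3 to 2.17) higher. Igfbp4, Lef1 and Ccr7 differed little, at 11.4 against 10.1, 11.4 against 10.1 and 11.3 against 10.6. Cd6, a relative of Cd5, had a ratio of 0.829 with an interval from 0.509 to 1.31, and Nr4a1 had 1 UMI on each side. When cells with S100a6 or Lgals1 were also left out (39 cells with Ly6c1 and 72 without), Cd5 was 2.81-fold (1.77 to 4.62) and Izumo1r 5.53-fold lower and Ly6a 1.77-fold higher in the cells with Ly6c1. That restriction was chosen after the data were seen.

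The receptors of the members were diverse. A TCR alpha (TRA) and a beta (TRB) chain were both found in 140 members (85.9%, 79.6 to 90.8), TRB alone in 17 (10.4%) and TRA alone in 6. In CD8 cells the share with both was 81.5%, and TRB stood alone in 17%. The median chain had 4 UMIs for TRA and 9 for TRB. Of the members 127 (77.9%) had exactly 1 TRA and 1 TRB chain, 12 (7.36%, 3.86 to 12.5) had 2 TRA chains and 2 had 2 TRB chains. The median CDR3, the loop that meets the peptide, was 14 residues in both chains, with means of 13.6 ± 1.39 (SD, n = 158 chains) for TRA and 13.8 ± 1.47 (SD, n = 159 chains) for TRB, and CD8 TRB chains had a median of 14 too.

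The 163 members fell into 162 clonotypes, of which 161 had 1 member and 1 had 2 members. The clonality, which is 0 when all clonotypes are equal and 1 when a single one holds all cells, was 0.000462. The 394 CD8 cells made 378 clonotypes, the largest with 4 cells, at a clonality of 0.00391. Clonotypes of members with at least 2 cells anywhere in the library numbered 3. The clonotype with 2 members is shown because it was the only one found more than once among them, and its alpha chain was read in 1 of the 2 cells.
TRA CDR3, TRAV12N-1 with TRAJ16: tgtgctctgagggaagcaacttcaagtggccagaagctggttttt
TRB CDR3, TRBV31 with TRBJ2-1: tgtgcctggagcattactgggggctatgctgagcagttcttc

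CDR3 loops of the same amino acids were also found in other cells, for 8 of the 157 distinct TRA loops of the members and 2 of their 158 distinct TRB loops. In 4 of the TRA and both TRB loops the nucleotides differed between cells, so that the same loop was encoded by different rearrangements in a member and in another cell. These pairs are shown for that reason. Capitals mark the bases at which the 2 sequences of a pair differ. Each was read in 1 cell, except that the member sequence of the TRAJ22 pair was also read in 4 CD8 cells.
TRB, member, TRBV15 with TRBJ2-4: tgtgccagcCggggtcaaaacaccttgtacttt
TRB, CD8 cell, TRBV19 with TRBJ2-4: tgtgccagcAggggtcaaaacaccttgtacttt
TRB, member, TRBV3 with TRBJ1-1: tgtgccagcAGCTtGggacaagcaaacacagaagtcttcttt
TRB, clonotyped barcode of neither group, TRBV12-2 with TRBJ1-1: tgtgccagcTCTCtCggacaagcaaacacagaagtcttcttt
TRA, member, TRAV7D-2 with TRAJ18: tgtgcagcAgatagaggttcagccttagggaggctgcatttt
TRA, CD8 cell, TRAV14N-2 with TRAJ18: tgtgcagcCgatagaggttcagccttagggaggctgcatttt
TRA, member, TRAV5-4 with TRAJ56: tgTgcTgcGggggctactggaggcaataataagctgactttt
TRA, CD8 cell, TRAV19 with TRAJ56: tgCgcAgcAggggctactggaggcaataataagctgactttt
TRA, member, TRAV14-3 with TRAJ49: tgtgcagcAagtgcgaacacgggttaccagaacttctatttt
TRA, clonotyped barcode of neither group, TRAV7D-4 with TRAJ49: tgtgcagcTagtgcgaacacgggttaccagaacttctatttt
TRA, member, TRAV14N-3 with TRAJ22: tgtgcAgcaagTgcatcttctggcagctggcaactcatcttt
TRA, CD8 cell, TRAV5N-4 with TRAJ22: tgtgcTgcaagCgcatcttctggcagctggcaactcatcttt

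Both cells of each pair used the same J segment and different V segments, and the differing bases lay in the first part of the loop. The first TRB pair and the TRAJ18 and TRAJ49 pairs differed at 1 base, the TRAJ22 pair at 2, the TRAJ56 pair at 3 and the second TRB pair at 5.

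Segment use differed from that of CD8 cells at a few segments. Of 153 V and J segments compared, the exact binomial intervals of the CD4 and CD8 shares did not overlap for 5, which were 3 of 21 TRBV, none of 12 TRBJ, none of 77 TRAV and 2 of 43 TRAJ segments. TRBV31 was used by 22 of 157 members with a beta chain (14%, 8.99 to 20.4) and 8 of 388 CD8 cells (2.06%, 0.894 to 4.02). Counted once per clonotype the shares were 13.5% and 2.14%. Trbv31 lies on chromosome 6 from 41557693 to 41558371 in GRCm38.p6, beyond the constant gene Trbc2 (41546730 to 41548181), whereas the other V segments lie on the far side of the D, J and constant genes. The clonotype with 2 members used it.

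TRBV16 was used by 4 members (2.55%, 0.698 to 6.39) and 40 CD8 cells (10.3%, 7.47 to 13.8), and TRBV12-2 by 1 member (0.637%, 0.0161 to 3.5) and 32 CD8 cells (8.25%, 5.71 to 11.4). A joint label of TRBV12-2 and TRBV13-2 held 8.92% of members and 7.99% of CD8 cells, so the share of TRBV12-2 may be higher in both. How this label divides between the segments is not known, so the gap between the TRBV12-2 intervals may not hold. TRBV5 (10.8% and 5.41%) and TRBV2 (7.64% and 2.58%) had overlapping intervals. TRAJ22 was found in 5 of 146 members with an alpha chain (3.42%, 1.12 to 7.81) and 40 of 327 CD8 cells (12.2%, 8.88 to 16.3), and TRAJ23 in 2 (1.37%) and 26 (7.95%).

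**Figure D5:**
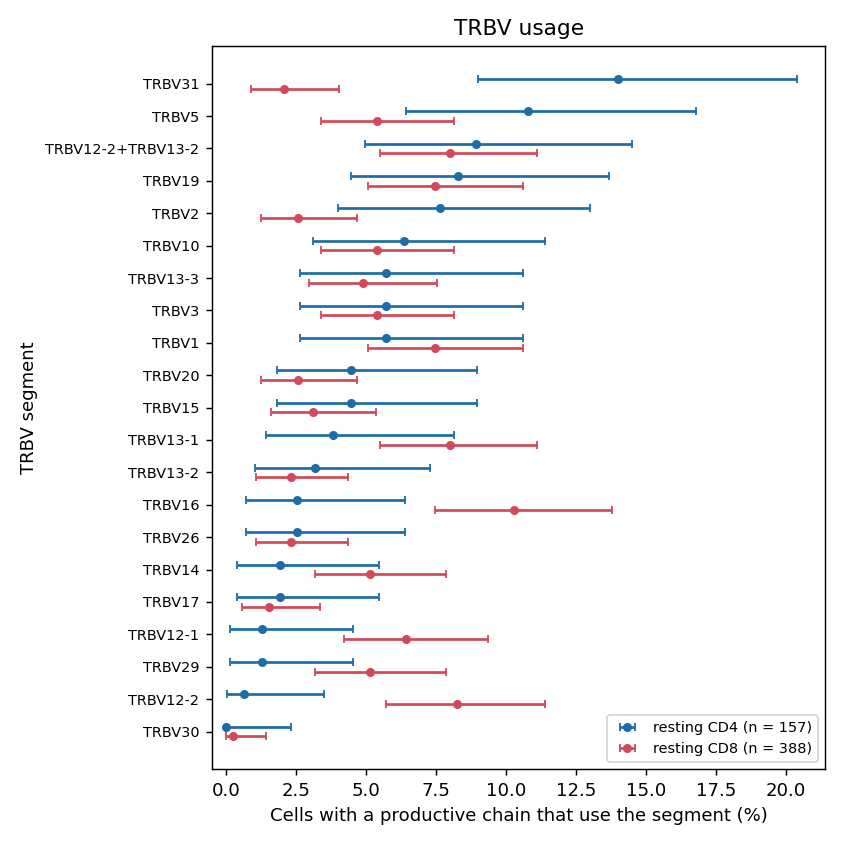
Share of cells in percent (x axis, points, with exact binomial 95% intervals as bars that cover counting error only) using each TRBV segment (y axis), for 157 resting CD4 and 388 CD8 cells with a beta chain. TRBV31 stands at 14% of CD4 and 2.06% of CD8 cells, TRBV16 at 2.55% and 10.3%.

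The invariant alpha chains of innate-like T cells were not found among the members. TRAV11 with TRAJ18, the chain of natural killer T cells, was in 0 of 146 members, which allows a share of up to 2.05% if 3 counts are taken as the floor, and in 1 S100a4-positive cell. TRAV1 with TRAJ33, the chain of mucosal-associated invariant T cells, was in none. TRAJ18 and TRAJ33 joined to other V segments in 4 and 7 members.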

How the data were processed

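Single-cell RNA and TCR libraries of 1 vehicle-treated mouse were made with 10x Genomics kits. The authors deposited an unfiltered matrix of UMI counts, 32285 genes by 300213 barcodes with 12855001 UMIs in all, made with Cell Ranger (version 4 per the file headers) on GRCm38 per the submitters' processing notes, and a table of assembled TCR contigs with read and UMI counts per chain. Neither was normalized. No other value columns were left unused (0).

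Cells were chosen from raw counts by the stated limits. Levels were summed UMIs per 10000 with exact Poisson intervals, shares had Clopper-Pearson intervals, and ratios had exact conditional binomial intervals, all at 95%. A gene counted as higher or lower when the ratio was at least 2-fold and both groups together had at least 50 UMIs. A count of 0 was set to 3 counts over the group for a bound. Ribosomal protein, mitochondrial, TCR and immunoglobulin segment genes and genes of the rule were left out of the named genes, which were the 15 highest and 15 lowest ratios of each of 3 comparisons, the 20 most abundant genes, and members of 16 gene lists and 12 marker lists. Counts were thinned to 2500 UMIs per cell with a fixed seed. Scrublet (in scanpy 1.11.5) predicted 11 doublets among 1600 barcodes (0.688%), and they were kept. B cells had no clonotype and UMIs of at least 2 B cell genes, among them Cd79a, Cd79b and Ms4a1. Gene positions are those of RefSeq (GRCm38.p6), matched by symbol. The calculations used Python 3.11.15, numpy 2.4.6, scipy 1.17.1, pandas 2.3.3 and matplotlib 3.10.9, and were tested on simulated data. The members, the gene lists and the comparisons were chosen with earlier results of these data known. Alternatives changed the limits on UMIs, ribosomal share, Cd4 and S100a4, the clonotype requirement, doublets, thinning, averaging over cells, free RNA (5% of each cell's UMIs, from barcodes of 10 to 50 UMIs), the CD8 cells compared, the TCR chains and clonotypes, the gene minimum and the fold. The authors' own cluster comparisons were not used. Some genes are not reported here.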

Additional observations from a re-analysis of the deposited data

How the results depend on the processing

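No paired analysis was possible because there is 1 sample. Of 1347 values of 90 gene ratios under the alternatives, 1220 stayed within the interval of the reported ratio, 124 moved out of it and 3 changed sign. These were the ratios to Foxp3-positive cells without their 2 deepest cells, which became 1.70 for Ahnak, 1.01 for Crip1 and 1.24 for S100a11. For 33 no fold could be given. The alternative gene minimum and fold cannot change a ratio, so their values count among the 1220 by construction. Leaving out predicted doublets likewise changed nothing against S100a4-positive and Foxp3-positive cells, as neither these groups nor the members held any. Of 226 other values 179 kept within the spread and 47 moved, as follows. With at least 2 Cd4 UMIs 90 members remained, with Cd4 at 5.774 and Igfbp4 at 12.13 per 10000. As a mean over cells Cd4 was 5.162 and Igfbp4 8.039, and Igfbp4 was 8.765 thinned and 12.16 at a ribosomal limit of 20%. With S100a4, S100a6 and Lgals1 all at 0, Lef1 was 11.34, Ccr7 11.76 and Ly6c1 2.813, and 2.273% of members had 7 or more memory genes. S100a6 and Lgals1 are on the memory list, so this share falls in part by construction. Without thinning the median number of memory genes was 4.

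Counts of genes higher and lower against CD8 cells were 216 and 94 with S100a4, S100a6 and Lgals1 at 0, 538 and 410 thinned, 684 and 484 at 20 UMIs, 1384 and 540 at 1.5-fold and 194 and 58 against CD8 cells without effector transcripts, 156 and 61 with members filtered likewise, and 184 were higher relative to the median ratio. Against S100a4-positive cells they were 88 and 116 with 2 Cd4 UMIs, 502 and 532 at 20 UMIs and 397 and 549 at 1.5-fold, with 315 higher when thinned and 121 lower at a ribosomal limit of 20%. Against Foxp3-positive cells they were 337 and 224 thinned, 743 and 440 at 20 UMIs and 505 and 408 at 1.5-fold. With S100a4, S100a6 and Lgals1 at 0 in the members alone, 115 were higher. Clonality was 0.0007012 at a ribosomal limit of 20%. It was 0, with 0 clonotypes of 2 members, at 2 Cd4 UMIs, with S100a6 and Lgals1 at 0, and with exactly 1 TRA and 1 TRB chain. The rescaled, per-clonotype, left-out-cell and both-sided filter alternatives, limits of 6 and 8 memory genes, and the Ly6c1 restriction were chosen after the data were seen. One mouse and 1 library set the limit of all values, and genes under about 50 UMIs have wide intervals.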
